A study of Mus musculus with 6 samples.

Results

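The genes examined here build, load and regulate the major histocompatibility complex (MHC) molecules that carry peptides or lipids to the cell surface for T cells. Members were taken as the protein-coding genes whose symbol begins with H2-, the mouse MHC, together with *Cd74*, *Ciita*, *B2m*, *Tap1*, *Tap2*, *Tapbp*, *Psmb8*, *Psmb9*, *Psmb10*, *Nlrc5* and *Cd1d1*. This gave 33 of the 28262 genes in the table, and 27 of the 33 lie on chromosome 17. They fall into 18 class I heavy chain genes, 8 genes for the class I light chain and for class I peptide supply and control, and 7 class II genes. Their RNA was compared between Sertoli cells of 2 genotypes, with 3 libraries of each, to ask how the loss of *Pa1* in the Sertoli cell changes transcription. All mice were C57BL/6 and the cells came from testes at 20 days of age and were kept at 34 °C without any treatment. *Pa1F/F* cells carry floxed alleles of *Pa1* and served as the control. In *Amh-pa1-/-* cells these alleles are deleted by a Cre recombinase under the *Amh* promoter, which is active in Sertoli cells. *Pa1* itself was not analysed here. The genotype of a library therefore rests on its label, and the number of mice behind a library is not given in the sources used here.

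Class I molecules consist of a heavy chain and the light chain β2-microglobulin, and nearly every nucleated cell displays them. Their peptides are cut by the proteasome, carried into the endoplasmic reticulum by the TAP transporter and loaded with the help of tapasin, and interferons raise the whole route. Class II molecules are made mainly by dendritic cells, B cells and macrophages under the coactivator CIITA. They travel with the invariant chain CD74, and H2-DM then exchanges the remnant of that chain for a peptide. Sertoli cells form the wall that separates meiotic germ cells from the immune system, which makes low display of MHC at this site a long-standing subject.

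The promoters of 5 members are shown first, because the results below turn on these genes. *H2-K1* is a classical class I gene at high level, *H2-Q10* is a relative of it that fell in *Amh-pa1-/-* cells, *H2-T23* is the nonclassical class I gene that fell, *B2m* encodes the light chain, and *H2-Aa* is a class II gene that rose. Each window holds 250 bases before and 50 bases after a start site of RefSeq, on build GRCm38.p6, and is printed 5′ to 3′ on the strand of the gene. RefSeq gives *H2-K1* more than one start site, and 1 is shown. Capitals mark matches, on either strand, to the motifs GAAANNGAA (interferon-stimulated response element type, ISRE), TTCNNNGAA (interferon γ activated site type, GAS), ATTGG (the core of NF-Y sites), GGGNNTTCC (NF-κB type) and TATAAA.
H2-K1, chr17:34000284-34000583, minus strand: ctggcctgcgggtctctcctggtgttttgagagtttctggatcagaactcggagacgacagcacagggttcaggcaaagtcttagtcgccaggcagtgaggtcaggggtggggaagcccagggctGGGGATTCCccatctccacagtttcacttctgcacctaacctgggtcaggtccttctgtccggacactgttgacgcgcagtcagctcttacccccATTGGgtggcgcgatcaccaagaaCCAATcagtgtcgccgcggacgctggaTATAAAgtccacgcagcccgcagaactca
H2-Q10, chr17:35469839-35470138, plus strand: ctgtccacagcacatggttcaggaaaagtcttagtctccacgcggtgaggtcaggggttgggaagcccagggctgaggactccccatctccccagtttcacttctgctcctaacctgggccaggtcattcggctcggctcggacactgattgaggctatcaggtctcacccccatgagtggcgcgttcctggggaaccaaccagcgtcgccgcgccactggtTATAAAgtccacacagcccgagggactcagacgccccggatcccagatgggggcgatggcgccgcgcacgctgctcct
H2-T23, chr17:36032652-36032951, minus strand: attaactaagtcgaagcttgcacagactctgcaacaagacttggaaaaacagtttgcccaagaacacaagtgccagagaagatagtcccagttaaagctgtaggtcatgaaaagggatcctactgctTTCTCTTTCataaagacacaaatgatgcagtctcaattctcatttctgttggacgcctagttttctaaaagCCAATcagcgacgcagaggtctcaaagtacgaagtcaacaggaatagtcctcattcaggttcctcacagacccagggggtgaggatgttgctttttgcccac
B2m, chr2:122147437-122147736, plus strand: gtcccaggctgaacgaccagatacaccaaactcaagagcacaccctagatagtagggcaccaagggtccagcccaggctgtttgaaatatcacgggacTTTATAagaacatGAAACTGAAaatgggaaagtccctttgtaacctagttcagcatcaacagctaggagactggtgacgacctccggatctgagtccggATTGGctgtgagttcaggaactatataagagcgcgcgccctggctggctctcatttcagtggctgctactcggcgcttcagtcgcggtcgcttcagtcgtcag
H2-Aa, chr17:34287774-34288073, minus strand: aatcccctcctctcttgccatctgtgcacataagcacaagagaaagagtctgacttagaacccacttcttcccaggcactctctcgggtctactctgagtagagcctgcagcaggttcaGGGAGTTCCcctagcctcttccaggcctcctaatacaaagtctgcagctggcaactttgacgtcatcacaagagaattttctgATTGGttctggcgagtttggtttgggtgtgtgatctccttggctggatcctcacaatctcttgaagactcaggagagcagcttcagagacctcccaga

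A promoter window was used for 25 of the 33 members. The NF-κB type motif was found in 7 of the 25 members as compared with 5.82% of all 32851 promoters, and 6 of these 7 were class I heavy chain genes (*H2-K1*, *H2-D1*, *H2-Q4*, *H2-Q6*, *H2-Q7* and *H2-M2*). The ATTGG motif was found in 21 of the 25, including all 4 class II members with a window, as compared with 37.4% of all promoters. The ISRE type motif was found in *H2-T22*, *H2-T23* and *B2m* (8.56% of all promoters), the GAS type motif in *Psmb8* and *H2-M3* (8.3%), and TATAAA in 11 members (13.6%). No match of one motif overlapped another in the 5 printed windows. The windows of *H2-K1* and *H2-Q10* align over 245 positions with 84.5% identity. The NF-κB type match GGGGATTCC of *H2-K1*, which begins 125 bases before the start site, aligns with gaggactcc in *H2-Q10*, and counted from 1 at the 5′ end of the match the differences from *H2-K1* to *H2-Q10* are G2A and T6C. The match CCAAT next to the start site shown for *H2-K1*, which is ATTGG on the other strand, differs by T5C, and the TATAAA match is shared. The other ATTGG match of *H2-K1* has no match in *H2-Q10* either. TATAAA begins 21 bases after the start site used for *H2-K1* and 28 bases before that of *H2-Q10*, so distances depend on the start site chosen. Related promoters share sequence by descent, and a match does not show that a factor binds.

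The totals per library were 14051353 to 16231443 counts in *Pa1F/F* and 13203757 to 15247587 counts in *Amh-pa1-/-* cells, so that 3 counts, taken as the floor, stand at 0.185 to 0.23 CPM, the count scaled to library size. Values below are normalized counts, that is, counts scaled by TMM-corrected library size to a common depth. A gene is said to be called, higher or lower, where its edgeR quasi-likelihood adjusted p (Benjamini-Hochberg, 14919 tested genes) was under 0.05 and its log2 fold change was 1 or more in size. By this rule 12.0% of the tested genes were called, 6.56% lower and 5.44% higher in *Amh-pa1-/-* cells. Nothing in the labels says that the replicates came from separate mice, so p-values measure the spread between these libraries only. Of 11 Sertoli cell markers 10 were tested. *Inha* was called lower (log2 fold change -1.23, edgeR adjusted p = 0.000705), and *Gata4* (-0.88) and *Clu* (-0.69) were lower without reaching the fold threshold. *Sox9*, *Wt1*, *Cldn11*, *Dhh*, *Kitl*, *Fshr* and *Amh* did not pass the test, although *Amh* ranged from 43.9 to 365 normalized counts in *Amh-pa1-/-* libraries, and *Rhox5* did not pass the filter. The marker genes of T and NK cells were not in the table.

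One control library stood apart for most of the genes described here. *Pa1F/F* replicate 2 was at least 2-fold above both other *Pa1F/F* replicates for 15 of the 21 tested class I genes and for none of the 6 tested class II genes, as compared with 2.0% of all tested genes. It was the highest of the 6 libraries for 16 of the 21 class I genes and for 1 class II gene, as compared with 19.8% of all tested genes. Over 17 well-measured members the median absolute log2 difference was 1.44 between *Pa1F/F* replicates 1 and 2 and 0.113 between replicates 1 and 3. Over 10492 genes of the table the same differences were 0.114 and 0.0703. The class I genes are therefore described with all 6 libraries and again without *Pa1F/F* replicate 2. Because this library was singled out by its values for these same genes, leaving it out moves class I towards higher in *Amh-pa1-/-* cells by construction, and p-values of that fit describe the remaining 5 libraries and are no independent support. Without it 11.1% of 15155 tested genes were called, 5.84% lower and 5.29% higher. Among *Amh-pa1-/-* libraries, replicate 3 stood apart from the other 2 across the table, with a median absolute log2 difference of 0.182 from each as compared with 0.0659 between replicates 1 and 2 (0.271 and 0.284 as compared with 0.109 over the 17 members). The label of *Pa1F/F* replicate 2 gives no treatment that sets it apart, and the source of its values was not tested.

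With all 6 libraries, 2 of the 13 tested class I heavy chain genes were called, *H2-Q10* and *H2-T23*, both lower in *Amh-pa1-/-* cells, and none was called higher. This is near the 12.0% of all tested genes called (6.56% lower). The median log2 fold change of the 13 genes was -0.11, as compared with 0.00 over all tested genes. Without *Pa1F/F* replicate 2, the median of the 13 was 0.99 (0.01 over all tested genes), the same 2 genes were called lower, and *H2-D1*, *H2-Q4*, *H2-Q7* and *H2-M3* passed the thresholds as higher, as compared with 5.29% of all tested genes in that fit. *H2-M2* also passed, but is not read there for the reason given below. The 2 classical genes *H2-K1* and *H2-D1*, which present peptides to CD8 T cells, made up 79.4% to 89.5% of the summed heavy chain counts of a library. The sum was 10205, 28150 and 10791 normalized counts in the *Pa1F/F* libraries, listed here and below by replicate number, against 19065, 18824 and 22616 in the *Amh-pa1-/-* libraries. The *Amh-pa1-/-* libraries thus sat above 2 of the control libraries and below the remaining one. As a share of reads the sum ranged from 0.0694% to 0.189% in *Pa1F/F* and from 0.127% to 0.158% in *Amh-pa1-/-* libraries. The means were 16382 ± 10196 and 20168 ± 2123 (SD, n = 3 each; exact two-sided permutation p = 0.6, where 3 against 3 cannot go below 0.1). The log2 fold change of the sum was 0.30 ± 0.39 (SE; edgeR adjusted p = 0.583), and 0.94 ± 0.11 (adjusted p = 0.00287) without *Pa1F/F* replicate 2. It was 0.06 or 0.07 without *Pa1F/F* replicate 1 or 3. In the fit without *Pa1F/F* replicate 2 the spread among controls comes from 2 libraries that lie close together, and the rest from the 3 *Amh-pa1-/-* libraries.

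**Figure D1:**
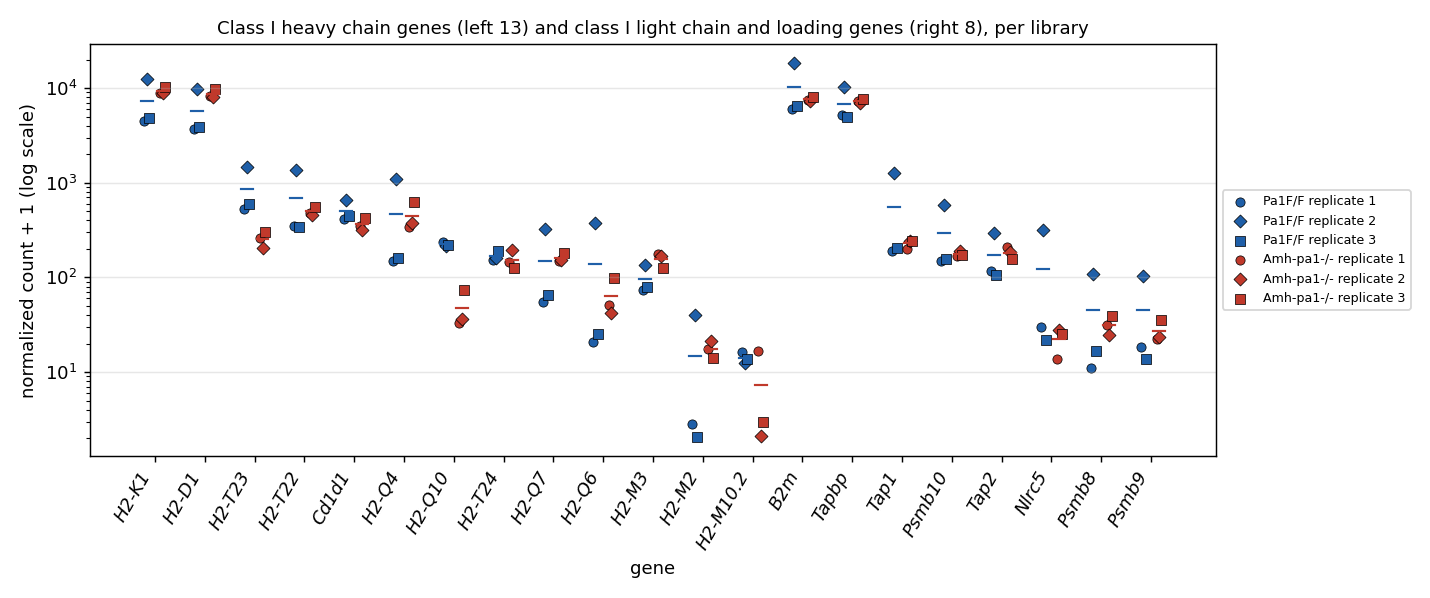
Normalized counts plus 1 on a log scale for the 21 tested class I genes, heavy chains on the left and light chain and loading genes on the right, with 1 point per library and a bar at the mean of each genotype (n = 3). The blue diamonds of *Pa1F/F* replicate 2 stand above the other *Pa1F/F* points for most genes, while the *Pa1F/F* points of *H2-Q10* lie together at 212 to 238.

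*H2-K1* was measured at 4503, 12559 and 4797 normalized counts in *Pa1F/F* and at 8809, 8785 and 10194 in *Amh-pa1-/-* cells. *H2-D1* was measured at 3700, 9781 and 3852 in *Pa1F/F* and at 8239, 8067 and 9883 in *Amh-pa1-/-* cells. For both genes the *Amh-pa1-/-* libraries were about level with each other and lay well above *Pa1F/F* replicates 1 and 3, whereas the genotypes overlapped once *Pa1F/F* replicate 2 was counted. The log2 fold change was 0.35 ± 0.39 for *H2-K1* (SE; edgeR adjusted p = 0.523) and 0.60 ± 0.37 for *H2-D1* (adjusted p = 0.256). Without *Pa1F/F* replicate 2 it was 0.99 ± 0.09 for *H2-K1* (edgeR adjusted p = 0.00174), which passed the p threshold and fell just short of the fold threshold, and 1.21 ± 0.11 for *H2-D1* (adjusted p = 0.00155).

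*H2-Q10* encodes a class I molecule that is secreted rather than held in the membrane, and it is known best from the liver. It was measured at 238, 212 and 220 normalized counts in *Pa1F/F* and at 32.2, 34.9 and 73.1 in *Amh-pa1-/-* cells. All 3 control libraries lay close together here, *Pa1F/F* replicate 2 included, and no *Amh-pa1-/-* library came near them. The means were 224 ± 13.4 and 46.8 ± 22.9 (SD, n = 3 each), with a log2 fold change of -2.25 ± 0.31 (SE; edgeR adjusted p = 0.00226). It was -2.29 ± 0.35 (edgeR adjusted p = 0.00713) without *Pa1F/F* replicate 2. With the close pairs of libraries summed, which leaves 2 libraries per genotype, it was -2.07 and no longer passed (edgeR adjusted p = 0.0511). It was thus lower in the same libraries in which *H2-K1*, with 84.5% promoter identity, lay above *Pa1F/F* replicates 1 and 3. The difference between these 2 genes was not tested.

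*H2-T23* encodes the heavy chain of Qa-1, which shows signal peptides of other class I molecules to receptors of NK and T cells. It was measured at 532, 1448 and 595 normalized counts in *Pa1F/F* and at 259, 205 and 303 in *Amh-pa1-/-* cells. It had the high value in *Pa1F/F* replicate 2 that most class I genes showed, yet all *Amh-pa1-/-* libraries lay below every control. The log2 fold change was -1.75 ± 0.40 (SE; edgeR adjusted p = 0.016), and -1.14 ± 0.17 (adjusted p = 0.0065) without *Pa1F/F* replicate 2. The adjusted p of *H2-T23* rose to 0.0537 and 0.0589 in edgeR when *Amh-pa1-/-* replicate 1 or 2 was left out, and to 0.0822 (log2 fold change -1.89) with the close pairs summed. *H2-Q10* and *H2-T23* were the only class I genes of the 21 whose genotypes did not overlap, as compared with 52.4% of all tested genes.

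The Qa-2 group, which includes *H2-Q6* and *H2-Q7*, and its neighbour *H2-Q4* had large excesses in *Pa1F/F* replicate 2. *H2-Q4* was measured at 148, 1081 and 160 normalized counts in *Pa1F/F* and at 343, 370 and 629 in *Amh-pa1-/-* cells. *H2-Q6* was measured at 19.9, 372 and 24.1 against 49.8, 40.6 and 97.2, and *H2-Q7* at 54.4, 323 and 64 against 149, 152 and 180. In each of the 3 genes the *Amh-pa1-/-* libraries lay between the low pair of controls and the high one. With all libraries their log2 fold changes were -0.05 ± 0.77, -1.14 ± 1.09 and 0.13 ± 0.65 (SE; edgeR adjusted p = 0.967, 0.453 and 0.899). Without *Pa1F/F* replicate 2 they were 1.54 ± 0.30, 1.51 ± 0.46 and 1.44 ± 0.18 (edgeR adjusted p = 0.0146, 0.0553 and 0.00371), so that *H2-Q4* and *H2-Q7* were called higher. *H2-T22*, a nonclassical molecule seen by some γδ T cells, was measured at 349, 1361 and 340 in *Pa1F/F* and at 479, 457 and 557 in *Amh-pa1-/-* cells, and its log2 fold change was -0.46 ± 0.54 (edgeR adjusted p = 0.544), or 0.53 ± 0.11 (adjusted p = 0.0188) without *Pa1F/F* replicate 2.

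*H2-M3*, which presents formylated bacterial and mitochondrial peptides, was measured at 72.5, 134 and 77.6 normalized counts in *Pa1F/F* and at 175, 169 and 126 in *Amh-pa1-/-* cells. Its log2 fold change was 0.73 ± 0.27 (SE; edgeR adjusted p = 0.0751), and 1.06 ± 0.20 (adjusted p = 0.013) without *Pa1F/F* replicate 2. *H2-M2* had raw counts of 2, 40 and 1 in *Pa1F/F* and of 17, 18 and 13 in *Amh-pa1-/-* libraries. Here the high control lay above all *Amh-pa1-/-* libraries and the other controls were at or under the floor. With all 6 libraries *H2-M2* was not called (log2 fold change 0.25 ± 1.04, edgeR adjusted p = 0.87). When *Pa1F/F* replicate 2 is left out the controls lie under the floor and the gene passed the filter only through the *Amh-pa1-/-* libraries, so that its call in that fit is not read. The ratio of *Amh-pa1-/-* over *Pa1F/F* replicates 1 and 3 alone was 11.3, with an exact 95% interval of 3.65 to 56.8 for counting error only. This ratio leaves out the control library that was singled out by its high values, so it is no support for a difference. *H2-M10.2* had 15.4, 11.6 and 12.6 normalized counts in *Pa1F/F* and 15.6, 1.13 and 2.0 in *Amh-pa1-/-* cells, so 1 *Amh-pa1-/-* library lay with the controls (log2 fold change -1.02 ± 0.76, edgeR adjusted p = 0.334). Without that library, *Amh-pa1-/-* replicate 1, *H2-M10.2* was called lower (edgeR adjusted p = 0.0137), which rests on 1 and 2 counts in the remaining libraries. The value without *Pa1F/F* replicate 2 was -1.11 ± 0.89 on the log2 scale (edgeR adjusted p = 0.394).

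*H2-T24* and *Cd1d1* were not called with or without *Pa1F/F* replicate 2. *H2-T24* ranged from 152 to 187 normalized counts in *Pa1F/F* and from 125 to 193 in *Amh-pa1-/-* cells (log2 fold change -0.11 ± 0.18, edgeR adjusted p = 0.667, and -0.15 ± 0.22, adjusted p = 0.653, without *Pa1F/F* replicate 2). *Cd1d1*, which presents lipids to NKT cells, was measured at 414, 659 and 447 against 351, 319 and 426, with the highest value in *Pa1F/F* replicate 2. Its log2 fold change was -0.47 ± 0.20 (edgeR adjusted p = 0.111), and -0.24 ± 0.14 (adjusted p = 0.256) without that library. The other 5 heavy chain genes did not pass the filter on low counts: *H2-M5* had 4 to 11 counts per library, and *H2-M10.3*, *H2-M10.6*, *H2-Q1* and *H2-Q2* had 0 or 1.

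The light chain, loading and peptide supply genes showed no call with all 6 libraries (0 of 8, edgeR; 0 of 8 at an adjusted p under 0.05 regardless of fold). Their median log2 fold change was -0.64, and 0.40 without *Pa1F/F* replicate 2, when *Psmb8* was called higher. All 8 were highest in *Pa1F/F* replicate 2. *B2m*, the light chain, was measured at 6006, 18373 and 6536 normalized counts in *Pa1F/F* and at 7403, 7321 and 8103 in *Amh-pa1-/-* cells. Its log2 fold change was -0.44 ± 0.42 (SE; edgeR adjusted p = 0.452), and 0.28 ± 0.08 (adjusted p = 0.0455) without *Pa1F/F* replicate 2. All *Amh-pa1-/-* libraries lay above *Pa1F/F* replicates 1 and 3, as for *H2-K1* and *H2-D1*, with a ratio to their mean of 1.21 for *B2m*, 1.99 for *H2-K1* and 2.31 for *H2-D1*, and the difference between these genes was not tested. *Tapbp*, which encodes tapasin, was measured at 5159, 10265 and 4926 against 7215, 6952 and 7589 (log2 fold change 0.10 ± 0.28, edgeR adjusted p = 0.811, and 0.52 ± 0.07, adjusted p = 0.00456, without that library).

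The genes of the peptide transporter and of the immunoproteasome, the interferon-induced form of the proteasome, were also highest in *Pa1F/F* replicate 2. *Tap1* was measured at 191, 1270 and 203 normalized counts in *Pa1F/F* and at 200, 239 and 242 in *Amh-pa1-/-* cells, and its partner *Tap2* at 117, 296 and 105 against 206, 183 and 155. The immunoproteasome subunit *Psmb8* was measured at 9.97, 107 and 15.7 against 30.3, 23.7 and 38.1. The other subunits followed the same layout, with *Psmb9* at 17.2, 103 and 12.6 against 21.5, 22.5 and 34.1, and *Psmb10* at 148, 580 and 157 against 168, 188 and 170. In all 5 genes *Pa1F/F* replicate 2 was the single high library. With all libraries the log2 fold changes of *Tap1*, *Tap2*, *Psmb8*, *Psmb9* and *Psmb10* were -1.29, 0.07, -0.53, -0.76 and -0.75 (edgeR adjusted p = 0.215, 0.908, 0.66, 0.489 and 0.309). Without *Pa1F/F* replicate 2 the log2 fold change was 1.26 ± 0.37 for *Psmb8* (edgeR adjusted p = 0.0499) and 0.71 ± 0.17 for *Tap2* (adjusted p = 0.0274), while *Tap1*, *Psmb9* and *Psmb10* stood at 0.20, 0.79 and 0.20 (adjusted p = 0.302, 0.15 and 0.279). The constitutive subunits *Psmb5*, *Psmb6* and *Psmb7*, which the immunoproteasome subunits replace, had log2 fold changes of 0.01, -0.06 and 0.04 and no raised library. *Nlrc5*, the coactivator of class I transcription, was measured at 29.0, 319 and 21.0 against 12.7, 27.0 and 24.0. Its log2 fold change of -2.53 ± 1.09 (SE; edgeR adjusted p = 0.115) became -0.25 ± 0.40 (adjusted p = 0.674) without *Pa1F/F* replicate 2.

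The size of the excess in *Pa1F/F* replicate 2 over the mean of the other controls differed between genes of class I. It was 16.9-fold for *H2-Q6*, 12.7-fold for *Nlrc5*, 8.36-fold for *Psmb8*, 7.01-fold for *H2-Q4* and 6.44-fold for *Tap1*. It was 2.93-fold for *B2m*, 2.70-fold for *H2-K1*, 2.59-fold for *H2-D1* and 2.04-fold for *Tapbp*. At the ends of the range, *H2-M2* stood at 27.1-fold on few counts, while *H2-M3* (1.78), *Cd1d1* (1.53), *H2-T24* (0.937), *H2-Q10* (0.925) and *H2-M10.2* (0.83) had no 2-fold excess. Per length, as CPM per kb of exon, *B2m* was the most abundant member at 194 to 593 in *Pa1F/F* and 236 to 262 in *Amh-pa1-/-* libraries. *H2-K1* came next at 96.1 to 268 and 188 to 218, then *H2-D1* at 84.1 to 222 and 183 to 225 and *Tapbp* at 76.0 to 158 and 107 to 117. Neighbours in this order had overlapping ranges in *Pa1F/F* cells, whereas in *Amh-pa1-/-* cells *B2m* lay above and *Tapbp* below the other 2.

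**Figure D2:**
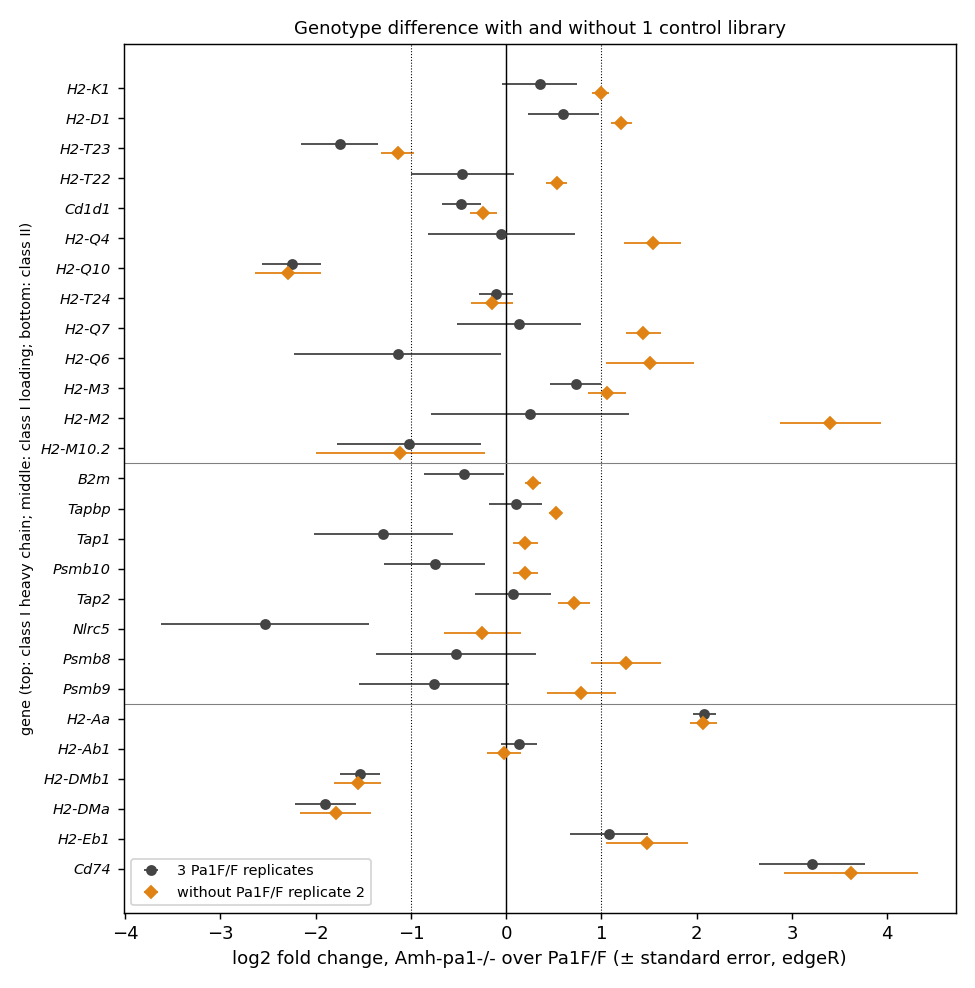
Log2 fold change of *Amh-pa1-/-* over *Pa1F/F* (x axis, bars ± SE from edgeR) for each of the 27 tested members (y axis), with all 3 *Pa1F/F* replicates (grey circles) and without *Pa1F/F* replicate 2 (orange diamonds). Dotted lines mark the fold threshold of 1, and *H2-Aa*, *H2-DMa*, *H2-DMb1* and *H2-Q10* keep their place while most class I genes, *H2-Eb1* and *Cd74* shift to the right.

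Genes of the interferon route that control class I expression were looked at beside the members. Of 15 tested genes, *Irf8* and *Socs1* were called lower in *Amh-pa1-/-* cells and none was called higher. This is near the 12.0% of all tested genes called (6.56% lower). Their *Amh-pa1-/-* counts (11, 5 and 9, and 13, 20 and 9) include values under the minimum of 10, so both passed the filter only through the controls. *Ifnar2* was lower and *Ifngr1* and *Jak1* were higher at an adjusted p under 0.05 without reaching the fold threshold (log2 fold changes -0.58, 0.44 and 0.28). *Irf8* was measured at 49.8, 23.2 and 42.0 normalized counts in *Pa1F/F* and at 10.7, 5.63 and 9.02 in *Amh-pa1-/-* cells (log2 fold change -2.15, edgeR adjusted p = 0.00677), and *Socs1*, which restrains interferon signalling, had a log2 fold change of -1.54 (adjusted p = 0.0315; without *Pa1F/F* replicate 2, -1.21, adjusted p = 0.0879). *Pa1F/F* replicate 2 was at least 2-fold above both other controls for 4 of the 15, as compared with 2.0% of all tested genes. *Irf7* was measured at 124, 2702 and 156 in *Pa1F/F* and at 23.4, 14.6 and 113 in *Amh-pa1-/-* cells, *Stat2* at 580, 4614 and 662 against 342, 317 and 605, and *Irf9* at 322, 1417 and 466 against 175, 164 and 402. These 3 genes, which act downstream of type I interferon, shared the high control library with the class I genes but were not at raised levels in *Amh-pa1-/-* cells. *Irf1*, a direct regulator of class I promoters, was measured at 133, 561 and 106 against 227, 247 and 340, with a log2 fold change of 0.02 (edgeR adjusted p = 0.979). It was called higher in the fit without *Pa1F/F* replicate 2 (1.18, edgeR adjusted p = 0.0136). *Ifnb1* had 0 or 1 count in every library. Whether interferon moved the class I genes in any library was not tested.

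**Figure D3:**
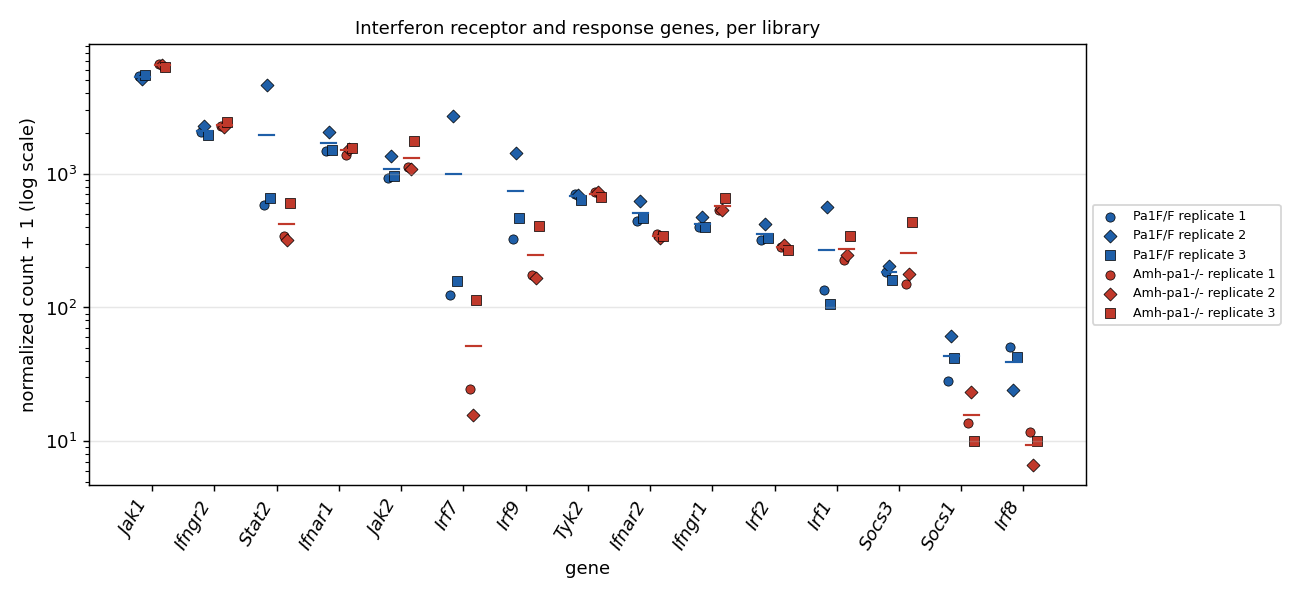
Normalized counts plus 1 on a log scale for the 15 tested interferon receptor and response genes, with 1 point per library and a bar at the mean of each genotype (n = 3). *Pa1F/F* replicate 2 (blue diamonds) reaches 2702 for *Irf7* and 4614 for *Stat2*, and the receptor and kinase genes show no gap of this size.

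Of the 10 class I helper genes tested, which fold, trim or load the peptide complex, 0 were called by edgeR. *Calr* and *Mr1* were lower and *Canx* was higher at an adjusted p under 0.05 without reaching the fold threshold (log2 fold changes -0.39, -0.55 and 0.30). *Erap1*, the aminopeptidase that trims class I peptides, was measured at 597, 1345 and 636 normalized counts in *Pa1F/F* and at 1070, 1072 and 1218 in *Amh-pa1-/-* cells. Its log2 fold change was 0.38 ± 0.30 (edgeR adjusted p = 0.366), and 0.86 (adjusted p = 0.00216) without *Pa1F/F* replicate 2.

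The class II genes moved in both directions, and the 4 calls among them held without *Pa1F/F* replicate 2. Of the 6 tested genes, *H2-Aa* and *Cd74* were higher and *H2-DMa* and *H2-DMb1* were lower in *Amh-pa1-/-* cells, as compared with 12.0% of all tested genes called in either direction (11.1% without *Pa1F/F* replicate 2), and the genotypes of these 4 genes did not overlap, as compared with 52.4% of all tested genes. *Cd74* and *H2-DMa* passed the filter only through the genotype in which they are high, so that a difference was built into their being tested and the count of 4 is no support by itself. Over the 6 genes the median log2 fold change was 0.60. *H2-Aa*, the α chain of the I-A molecule, was measured at 135, 126 and 125 normalized counts in *Pa1F/F* and at 495, 519 and 623 in *Amh-pa1-/-* cells. The libraries of each genotype lay close together, with means of 129 ± 5.61 and 546 ± 68.1 (SD, n = 3 each). The log2 fold change was 2.08 ± 0.12 (SE; edgeR adjusted p = 0.000114), and 2.07 ± 0.14 (adjusted p = 0.000765) without *Pa1F/F* replicate 2. *H2-Ab1*, which encodes the β chain that pairs with it, was measured at 68.9, 53.3 and 81.8 against 71.3, 74.4 and 77.2. *H2-Ab1* had a log2 fold change of 0.13 ± 0.19 (SE; edgeR adjusted p = 0.64), so that the 2 chains of 1 molecule were apart in these libraries, although the difference between the chains was not tested. Per length, *H2-Aa* stood at 1.98 to 2.14 CPM per kb in *Pa1F/F* cells and *H2-Ab1* at 1.41 to 2.17, whereas in *Amh-pa1-/-* cells they stood at 7.84 to 9.87 and 1.89 to 2.04.

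*Cd74*, the invariant chain, had 5, 9 and 4 counts in *Pa1F/F* and 40, 28 and 94 counts in *Amh-pa1-/-* libraries, or 4.53, 8.71 and 4.20 against 39.0, 31.5 and 94.2 normalized counts. All *Amh-pa1-/-* libraries were above all controls, and replicate 3 was more than 2-fold above the other *Amh-pa1-/-* libraries. This gave a log2 fold change of 3.21 ± 0.56 (SE; edgeR adjusted p = 0.00569), and 3.38 (adjusted p = 0.0553) with the close pairs summed. All 3 control counts lie under the minimum of 10, so *Cd74* was tested only because of the *Amh-pa1-/-* libraries. *H2-Eb1*, the β chain of I-E, which lacks its α chain in C57BL/6 mice, was measured at 10.9, 28.1 and 17.8 against 55.6, 36.0 and 28.1. One *Amh-pa1-/-* library was level with the highest control, and the log2 fold change was 1.08 ± 0.41 (SE; edgeR adjusted p = 0.0833). It was called higher when *Pa1F/F* replicate 2 was left out (1.48 ± 0.43, edgeR adjusted p = 0.0483) or when *Amh-pa1-/-* replicate 3 was left out (1.29, adjusted p = 0.0388).

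*H2-DMa* and *H2-DMb1* encode the chains of H2-DM, which edits the peptides of class II molecules. *H2-DMa* was measured at 25.4, 27.1 and 17.8 normalized counts in *Pa1F/F* and at 4.88, 7.89 and 6.01 in *Amh-pa1-/-* cells. *H2-DMb1* was measured at 55.3, 54.2 and 60.8 against 16.6, 19.2 and 23.0. Both chains were lower in every *Amh-pa1-/-* library, with log2 fold changes of -1.90 ± 0.32 and -1.53 ± 0.21 (SE; edgeR adjusted p = 0.00513 and 0.00217). Without *Pa1F/F* replicate 2 they were -1.79 ± 0.37 and -1.56 ± 0.25 (edgeR adjusted p = 0.0183 and 0.00771). With the close pairs summed *H2-DMa* passed (-1.95, edgeR adjusted p = 0.0474) and *H2-DMb1* did not (-1.45, adjusted p = 0.0522). *Ciita*, the coactivator of class II transcription, did not pass the filter, with counts of 3, 8 and 6 in *Pa1F/F* and of 2, 3 and 5 in *Amh-pa1-/-* libraries. A difference in *Ciita* was not tested.

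**Figure D4:**
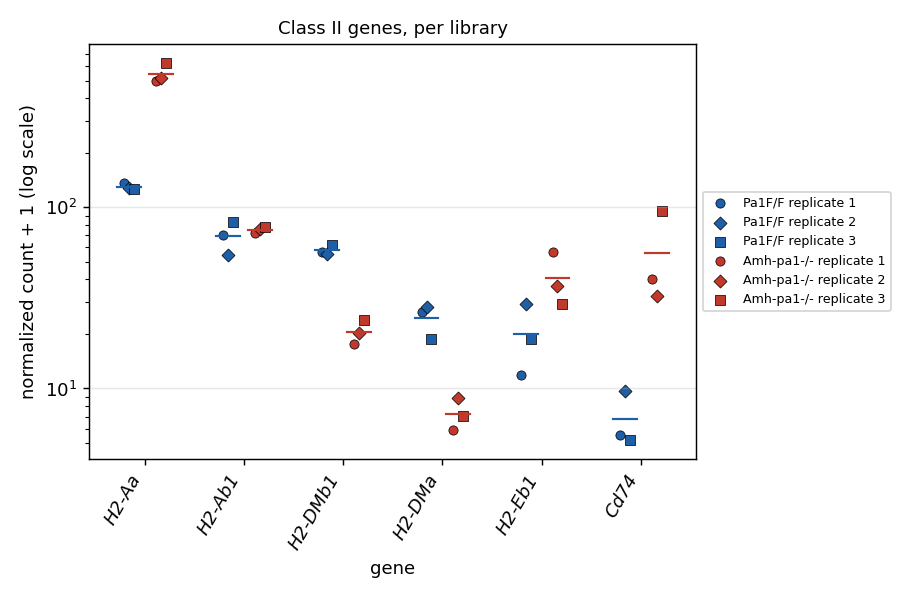
Normalized counts plus 1 on a log scale for the 6 tested class II genes, with 1 point per library and a bar at the mean of each genotype (n = 3). *H2-Aa* and *Cd74* are higher and *H2-DMa* and *H2-DMb1* are lower in *Amh-pa1-/-* libraries (red), *H2-Ab1* overlaps, and the *Pa1F/F* points of *H2-Aa* lie together at 125 to 135.

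The summed class II counts (6 genes, without *Ciita*) were 300, 297 and 307 in *Pa1F/F* and 682, 688 and 852 in *Amh-pa1-/-* libraries after normalization. The means were 301 ± 5.2 and 741 ± 96.1 (SD, n = 3 each; exact two-sided permutation p = 0.1, the smallest that 3 against 3 allows). Its log2 fold change was 1.30 ± 0.11 (SE; edgeR adjusted p = 0.000372). *H2-Aa* made up 40.6% to 75.5% of this sum in a library. The level stayed low next to class I, since the sum held 0.002% to 0.00209% of the reads in *Pa1F/F* and 0.00458% to 0.00594% in *Amh-pa1-/-* libraries.

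Of 11 tested class II helper genes, *Ctss* was called lower and none was called higher. *Ctss* encodes cathepsin S, which cuts the invariant chain, and was measured at 393, 300 and 378 normalized counts in *Pa1F/F* and at 15.6, 16.9 and 33.1 in *Amh-pa1-/-* cells (log2 fold change -4.02, edgeR adjusted p = 0.000219). *Ifi30*, a reductase of the endosome, and *Creb1*, a factor that binds class II promoters, were higher at an adjusted p under 0.05 without reaching the fold threshold (log2 fold changes 0.76 and 0.40, edgeR adjusted p = 0.004 and 0.00674). The class II promoter factors *Rfx5*, *Rfxap*, *Rfxank*, *Nfya*, *Nfyb* and *Nfyc* did not pass the test, with log2 fold changes of -0.21 to 0.30. Of 4 tested costimulatory and coinhibitory genes, *Cd80* and *Cd274* were called lower, as compared with 6.56% of all tested genes. *Cd80* was measured at 31.7, 35.8 and 33.6 against 8.79, 7.89 and 9.02 (log2 fold change -1.96, edgeR adjusted p = 0.0013). Its *Amh-pa1-/-* counts (9, 7 and 9) all lie under the minimum of 10, so *Cd80* was tested only through the controls. *Cd274*, which encodes PD-L1, was measured at 112, 771 and 102 against 11.7, 30.4 and 42.1 (log2 fold change -3.55, edgeR adjusted p = 0.0282, and -1.93, adjusted p = 0.025, without *Pa1F/F* replicate 2).

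No tested marker of the cells that normally make class II was called higher in *Amh-pa1-/-* cells, where *H2-Aa* and *Cd74* were. Of 11 tested macrophage markers, 9 were called lower in *Amh-pa1-/-* cells and none higher, as compared with 6.56% of all tested genes called lower. *Adgre1*, *C1qc*, *Tyrobp*, *Fcer1g* and *Itgam* had under 10 counts in every *Amh-pa1-/-* library, as did *Csf1r* in replicate 2. These genes passed the filter only through the controls, so that the count of 9 is no support by itself. The list summed to 132 to 144 CPM in *Pa1F/F* and 77.6 to 95 CPM in *Amh-pa1-/-* libraries. *Mrc1* and *C1qb* were not called. *Mrc1* carried most of the sum in *Amh-pa1-/-* libraries, at 1180, 1216 and 932 normalized counts against 986, 1022 and 945 in *Pa1F/F*. *Lyz2*, the called marker with the most counts in *Pa1F/F*, stood at 550, 363 and 454 there against 24.4, 32.7 and 85.2. Both tested pan-leukocyte markers, *Ptprc* and *Laptm5*, were lower, with a summed list level of 4.74 to 5.73 CPM against 0.613 to 0.818 CPM. The *Amh-pa1-/-* counts were 5, 4 and 2 for *Ptprc* and 4, 3 and 7 for *Laptm5*. Both genes passed the filter only through the controls, so that both being lower is no support by itself. *Ptprc*, which encodes CD45, was measured at 26.3, 32.0 and 22.0 normalized counts in *Pa1F/F* and at 4.88, 4.51 and 2.0 in *Amh-pa1-/-* cells. Its direction was that of *H2-DMa*, *H2-DMb1*, *Ctss*, *Irf8* and *Cd80* and opposite to that of *H2-Aa* and *Cd74*, while *H2-Ab1* was not called. *Ptprc*, *H2-DMa*, *Irf8* and *Cd80* passed the filter only through the controls and *Cd74* only through the *Amh-pa1-/-* libraries. These directions were thus built into the testing, and the match between them is no support for a link, which was not tested. The summed dendritic cell markers ranged from 77.7 to 81.1 CPM against 54.2 to 65.8 CPM, a difference that came with *Itgax*, which was called lower. *Zbtb46*, the other tested marker and the larger part of the sum, had a log2 fold change of -0.07 (edgeR adjusted p = 0.683), and the defining markers *Flt3* and *Clec9a* had at most 2 counts in a library. The summed B cell markers were under 1 CPM in every library. Among other somatic cells of the testis, the summed peritubular myoid markers were 214 to 272 CPM in *Pa1F/F* and 825 to 1218 CPM in *Amh-pa1-/-* libraries. *Acta2* carried that sum (2537 to 3239 normalized counts against 11886 to 15383) and was the only one of 4 tested markers called, while *Myh11* (481 to 649) and *Des* (93 to 139) were lower than every control in *Amh-pa1-/-* replicates 1 and 2, at 216 and 164 and at 43.9 and 46.2, and higher than every control in replicate 3, at 1605 and 485. *Cnn1* was also highest there (421, as compared with 27.1 to 65.0 in *Pa1F/F*). That library also had the highest *Cd74*, *Amh*, *Kdr*, *Dazl* and *Upk3b*, and a link between these values was not tested. The summed mesothelial markers were 6.65 to 11.6 against 26.5 to 34.8 CPM, with *Upk3b* and *Lrrn4* called higher and *Msln* and *Upk1b* not called (log2 fold changes -0.53 and 0.38). *Upk3b* had 7, 5 and 14 counts in *Pa1F/F*, so it passed the filter only through the *Amh-pa1-/-* libraries. Endothelial markers were 116 to 121 against 62.4 to 100 CPM, mostly *Cdh5* (log2 fold change -0.87), with *Pecam1* called lower and *Kdr* at 80.0, 74.4 and 485 normalized counts against 62.5 to 99.7 in *Pa1F/F*. Leydig cell markers were 794 to 911 against 165 to 288 CPM, almost all from *Star* and *Cyp11a1*. Both were called lower, as was *Hsd3b1* (log2 fold changes -1.59, -3.59 and -1.99). *Cyp17a1* and *Insl3* had at most 3 counts in a library and *Lhcgr* at most 15, and none of them passed the filter. The summed Sertoli markers were 16461 to 16744 CPM in *Pa1F/F* and 9997 to 12736 CPM in *Amh-pa1-/-* libraries, a sum carried by *Clu* (192489 to 194105 normalized counts against 105693 to 146325). Germ cell markers summed to 2.77 to 3.49 CPM in *Pa1F/F* and 1.33 to 5.04 CPM in *Amh-pa1-/-* libraries, with *Ddx4* called lower (log2 fold change -1.64, edgeR adjusted p = 0.0373) and *Dazl* at 45.1 normalized counts in *Amh-pa1-/-* replicate 3 as compared with at most 16.8 in the others. *Ddx4* had 2, 7 and 6 counts in *Amh-pa1-/-* libraries, so it passed the filter only through the controls. It was not called without *Pa1F/F* replicate 2 (edgeR adjusted p = 0.0599). In bulk RNA, fewer cells of a type and less RNA per cell cannot be told apart, and the part of these cell types in the class I and class II values was not tested.

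Reads can be shared between near-identical MHC genes. Of the 100-base windows in the annotated transcripts, 12.2% in *Tapbp*, chiefly through *Zbtb22*, which overlaps it on the same strand, 9.85% in *H2-Q7*, 9.50% in *H2-Q10*, 9.05% in *H2-Q6* and 8.13% in *H2-Q4* occur in another gene as well. The share was 11.3% in *H2-DMb1*, through *H2-DMb2*, 8.21% in *Cd1d1*, 6.74% in *H2-T22*, 2.53% in *H2-D1*, 2.03% in *H2-K1* and 2.57% in *H2-T23*, and none in *H2-Aa*, *H2-DMa* and *Cd74*. The annotation places *Tap1* and *Psmb9* on opposite strands with an overlap, and *Nlrc5* overlaps *9330175E14Rik*, which had 1 to 38 counts with the most in *Pa1F/F* replicate 2. Whether the counting used the strand is not given in the sources used here, so the values of *Tap1*, *Psmb9* and *Nlrc5* may include reads of the partner. Of the 6 H2- genes that the biotype rule left out, the 3 tested ones showed the same high control library, with *H2-Q5* at 9.04-fold, *H2-K2* at 5.98-fold and *H2-T10* at 4.16-fold over the mean of *Pa1F/F* replicates 1 and 3.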

How the data were processed

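RNA-seq was made by the authors from total RNA of isolated Sertoli cells, 3 *Pa1F/F* and 3 *Amh-pa1-/-* libraries grouped by their labels. The authors aligned reads to GRCm38 with HISAT2 2.1.0 and counted reads per gene with HTSeq 0.6.0. The counts were deposited by the authors as raw whole numbers. The same table holds the authors' own comparison (mean signal, ratio, log2 ratio, p-value and adjusted p-value, all deposited by the authors), which was not used.

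From the counts, genes were filtered with edgeR's filterByExpr (minimum count 10, minimum total 15), scaled by TMM and compared by the quasi-likelihood F-test (edgeR 4.0.16, R 4.3.3). Normalized counts are counts over the effective library size, times the mean of these sizes. The SE is the absolute log2 fold change divided by the square root of F. Calls needed an adjusted p under 0.05 and a log2 fold change of 1 or more in size. On simulated counts with a log2 fold change of 2, 99.5% of 187 changed genes among 14871 were recovered and 1.06% of calls were false. The simulation gave all genes the same small spread and no outlying library, so these rates do not describe the class I genes with a high control library. Alternatives used DESeq2 1.42.0, limma 3.58.1, other filters, the replicate number as a block, and fits without each library. Same-numbered libraries of the 2 genotypes correlated at 0.108, -0.164 and -0.179 in their deviations from the group means, so the numbers were not taken as pairs.

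Members, context lists, markers and motifs were chosen with earlier results of these data known. All tested members and all called genes of the context lists are named, and other context genes were chosen after their values were seen. One gene of the interferon list is not reported here. Promoters came from RefSeq (GRCm38.p6), exon lengths and shared windows from GENCODE by gene ID, and 2 promoters were aligned with Biopython 1.88. Without molecular identifiers, intervals and floors cover counting error only.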

Additional observations from a re-analysis of the deposited data

How the results depend on the processing

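Under DESeq2 size factors, library size alone, DESeq2's Wald test, limma-voom and the lighter filter (at least 1 count in total), 2 class I and 4 class II genes were called each time. Of 401 values of the named members under the alternatives, 7 newly passed the call thresholds in the same direction, 9 no longer passed them, and 2 passed them in the opposite direction. The 7 include *H2-M2* without *Pa1F/F* replicate 2, a call that is not read. The sign differed in 30 values of 14 members, of which 9 were without *Pa1F/F* replicate 2, and none of these 14 members was called with all libraries. The class I calls moved most with *Pa1F/F* replicate 2. Over the fits that left out 1 library, the count of class I calls ranged from 1 (without *Amh-pa1-/-* replicate 2) to 8 (without *Pa1F/F* replicate 2), and the summed heavy chain log2 fold change from 0.06 to 0.94. The 8 include *H2-M2*, whose call in that fit is not read. Without *Pa1F/F* replicate 2, *Psmb8* changed from -0.53 to 1.26 and *H2-Q4* from -0.05 to 1.54 (over all such fits, -1.0 to 1.26 and -0.47 to 1.54). Testing with glmTreat that the change exceeds 1 on the log2 scale left 1 class I gene, 2 class II genes and 538 genes of the table, and the summed class II value of 1.30 no longer passed (adjusted p = 0.072). With no fold threshold 5266 genes passed, and no further member. A filter of at least 10 counts in every library left 2 class II calls, since *Cd74* and *H2-DMa* are not tested under it. With the close pairs of libraries summed, which leaves 2 libraries per genotype, 0 class I genes, 2 class II genes (*H2-Aa* and *H2-DMa*) and 883 genes of the table were called; the edgeR adjusted p was then 0.0553 for *Cd74*, 0.0511 for *H2-Q10*, 0.0522 for *H2-DMb1* and 0.0822 for *H2-T23*, with log2 fold changes of 3.38, -2.07, -1.45 and -1.89. With the replicate block the summed class II log2 fold change was 1.29 (adjusted p = 0.00405), the summed class I value was 0.47 (adjusted p = 0.371), and 2 class I and 4 class II genes were called; the numbers only name the libraries, and not every library correlated best with its own number. Depth limits *Cd74*, *H2-DMa*, *H2-M2*, *H2-M10.2* and *Ciita*, which stood at or under 10 counts in some libraries.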
